A study of Mus musculus with 65 samples.

Results

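Axonemal dynein chains and the carriers that move cargo along cilia were examined in single outer hair cells (OHCs) of the mouse cochlea with and without a Casz1 deletion. The genes were taken by symbol and not by level: every row of the count table named Dnah, Dnai or Dnaic, Dnal, Dnali1, Ift, Bbs or Tctn plus a number, which gave 45 of the 55292 symbols listed. They comprise 15 dynein heavy chains, 5 intermediate and light chains, 3 genes of intraflagellar transport (IFT) complex A, 11 of complex B, 6 BBSome subunits, 2 BBSome chaperonins and 3 tectonics. The tectonics belong to the gate at the base of the cilium and not to its transport, so the symbols reach slightly beyond dyneins and carriers. Dnah8 was named beforehand in this choice, which was made with earlier results of these data known.

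The study asked about the part Casz1, a zinc finger transcription factor, plays in the survival of OHCs, the cells that amplify sound by changing length with the motor protein prestin (Slc26a5). At postnatal day 10, 17 OHCs were labelled CKO (conditional knockout) and 48 OHCs were labelled WT, and each library is 1 hand-picked cell. The CKO cells came from mice that carried Atoh1-Cre, active in developing hair cells, Casz1 flox/flox, Slc26a5-FlpO and the Rosa26-FSF-H2BEGFP reporter. The WT cells came from mice with Slc26a5-FlpO/+ and Rosa26-FSF-H2BEGFP/+, so that FlpO and a green nuclear reporter are common to both groups, while Cre and the floxed alleles are found in CKO alone. Slc26a5-FlpO marks cells that have switched on prestin, which limits the CKO cells to those that did so and were still present. The labels name no animal, so each genotype counts as 1 sample: no test across cells was run, and the intervals below cover counting error only, of reads or of the cells at hand, and leave out differences between animals.

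A motile cilium bends because dynein arms, anchored on one microtubule doublet, walk along the next. Heavy chains are the motors of these arms, and intermediate and light chains anchor and regulate them. IFT builds and maintains cilia of all kinds. Kinesin-2 moves IFT trains towards the tip, dynein-2 moves them back, and the BBSome links membrane proteins to the trains. The cilium of a cochlear hair cell is the kinocilium, which stands beside the stereocilia while the bundle takes its orientation and which the mouse cochlea resorbs as hearing matures. Genes of motile cilia are widely controlled by RFX factors, which bind the X-box, and by FOXJ1.

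X-box sequences were looked for in the RefSeq promoters (GRCm38.p6, 250 bases before to 50 after the start site), of which 41 of the 45 genes had one; Dnah3, Ift122, Ift80 and Ift81 were not matched. The letters searched on both strands were GTTNC, then 2 or 3 bases of any kind, then GGNAAC, where N is any base, and a promoter with several matches was counted once. They occurred in 7 of the 41 promoters (17.07%), those of Bbs7, Dnah9, Dnaic1, Dnaic2, Ift57, Tctn1 and Tctn3, and in 483 of 32851 promoters in the whole table (1.47%). A match is a description of letters and not a binding site. The count holds for these letters alone, and close variants were not counted. Dnah6 holds gttgctaagcaac, and Dnah7a, Dnah7b and Dnah7c hold gttgcttagcaac. These have AG where the search asked for GG, so a promoter outside the count can hold an X-box-like sequence. The 6 matches that lie wholly before the start site are shown with their flanks as the sequences behind this count, with the matching letters in capitals. They come from Bbs7 (chr3:36613492-36613550, minus strand), Dnaic1 (chr4:41569735-41569792, plus), Dnah9 (chr11:66168616-66168673, minus), Dnaic2 (chr11:114727346-114727403, plus), Ift57 (chr16:49699194-49699251, plus) and Tctn3 (chr19:40612354-40612411, minus).
Bbs7: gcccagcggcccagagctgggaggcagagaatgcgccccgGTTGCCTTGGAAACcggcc
Dnaic1: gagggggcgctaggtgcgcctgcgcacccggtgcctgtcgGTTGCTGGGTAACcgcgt
Dnah9: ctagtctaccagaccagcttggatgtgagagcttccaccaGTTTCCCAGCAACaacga
Dnaic2: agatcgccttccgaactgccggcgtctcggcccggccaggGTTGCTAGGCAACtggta
Ift57: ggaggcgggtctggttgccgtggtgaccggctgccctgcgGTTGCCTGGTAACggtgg
Tctn3: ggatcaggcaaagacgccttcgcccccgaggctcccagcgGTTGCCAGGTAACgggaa

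The results turn on Dnah8, so the 250 bases before its RefSeq start (chr17:30626686-30626935, plus strand) are shown whole; the GENCODE gene starts further upstream. They are in lower case because these X-box letters do not occur in them.
Dnah8: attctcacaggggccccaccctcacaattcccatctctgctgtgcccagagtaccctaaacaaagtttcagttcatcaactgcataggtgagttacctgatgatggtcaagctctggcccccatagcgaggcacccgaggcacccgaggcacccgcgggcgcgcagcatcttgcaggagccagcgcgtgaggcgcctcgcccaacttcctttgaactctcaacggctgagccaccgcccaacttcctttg

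Totals ran over the cells between 8239671 and 15320549 counts in CKO and between 7458126 and 17107710 counts in WT. OHC identity was checked on 8 markers, all of which were measured; Slc26a5 had a median of 1292 CPM per cell in CKO and 650 CPM in WT, where CPM is counts per 1000000 counts of the cell. Casz1 itself stood at 46.2 CPM over the CKO cells and 53.3 CPM over the WT cells; which exons are floxed is not given in the sources used here, so this count over the whole gene checks no deletion. X-linked Xist RNA without reads of Y-linked genes was seen in 15 of 17 CKO cells and 9 of 48 WT cells, so this pattern was spread unevenly over the genotypes. WT cells 1 to 11, 12 to 45 and 46 to 48 are known from earlier results on these data to stand apart, although the labels name no batch, and CKO cells were not divided in that way. Comparisons within the Xist-pattern cells and with each run of WT cells are therefore given for the larger differences and where they turn a direction by a wide margin. Of the 28 measured genes other than Dnah8, 22 turned their direction in at least 1 alternative, so that small ratios below describe all cells pooled.

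Of the 45 genes, 44 had at least 1 count in the 65 cells, and Dnah3 had none. A cell held counts for a median of 14 of these genes in CKO (range 9 to 19) and 14.5 in WT (range 7 to 22), and after every cell was thinned to 7458126 counts both medians were 14. The genes together took 1018 CPM in CKO cells and 1022 CPM in WT cells. The sums were close, and the cells of both groups spread widely, with 547 to 1699 CPM in CKO and 283 to 2037 CPM in WT.

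A gene was called measured when the mean of the CKO and WT levels was at least 5 CPM, which 29 of the 45 reached. The measured genes were all 14 IFT genes, all 6 BBSome subunits, all 3 tectonics, Bbs10, Dnaic2, Dnal4, Dnal1, and of the 15 heavy chains Dnah8 and Dnah14 alone. RNA of the IFT and BBSome genes was thus found in these OHCs, while 13 of the 15 heavy chains had a mean of both groups under 5 CPM, some with clear counts in a few cells and others with at most 4 counts in a group. Counts of 9 genes were seen in at least 50% of the cells of both groups, and Ift20 was the one gene with a count in every cell. For 15 measured genes the median cell had no count in either group: their pooled CPM is carried by a minority of cells.

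**Figure D1:**
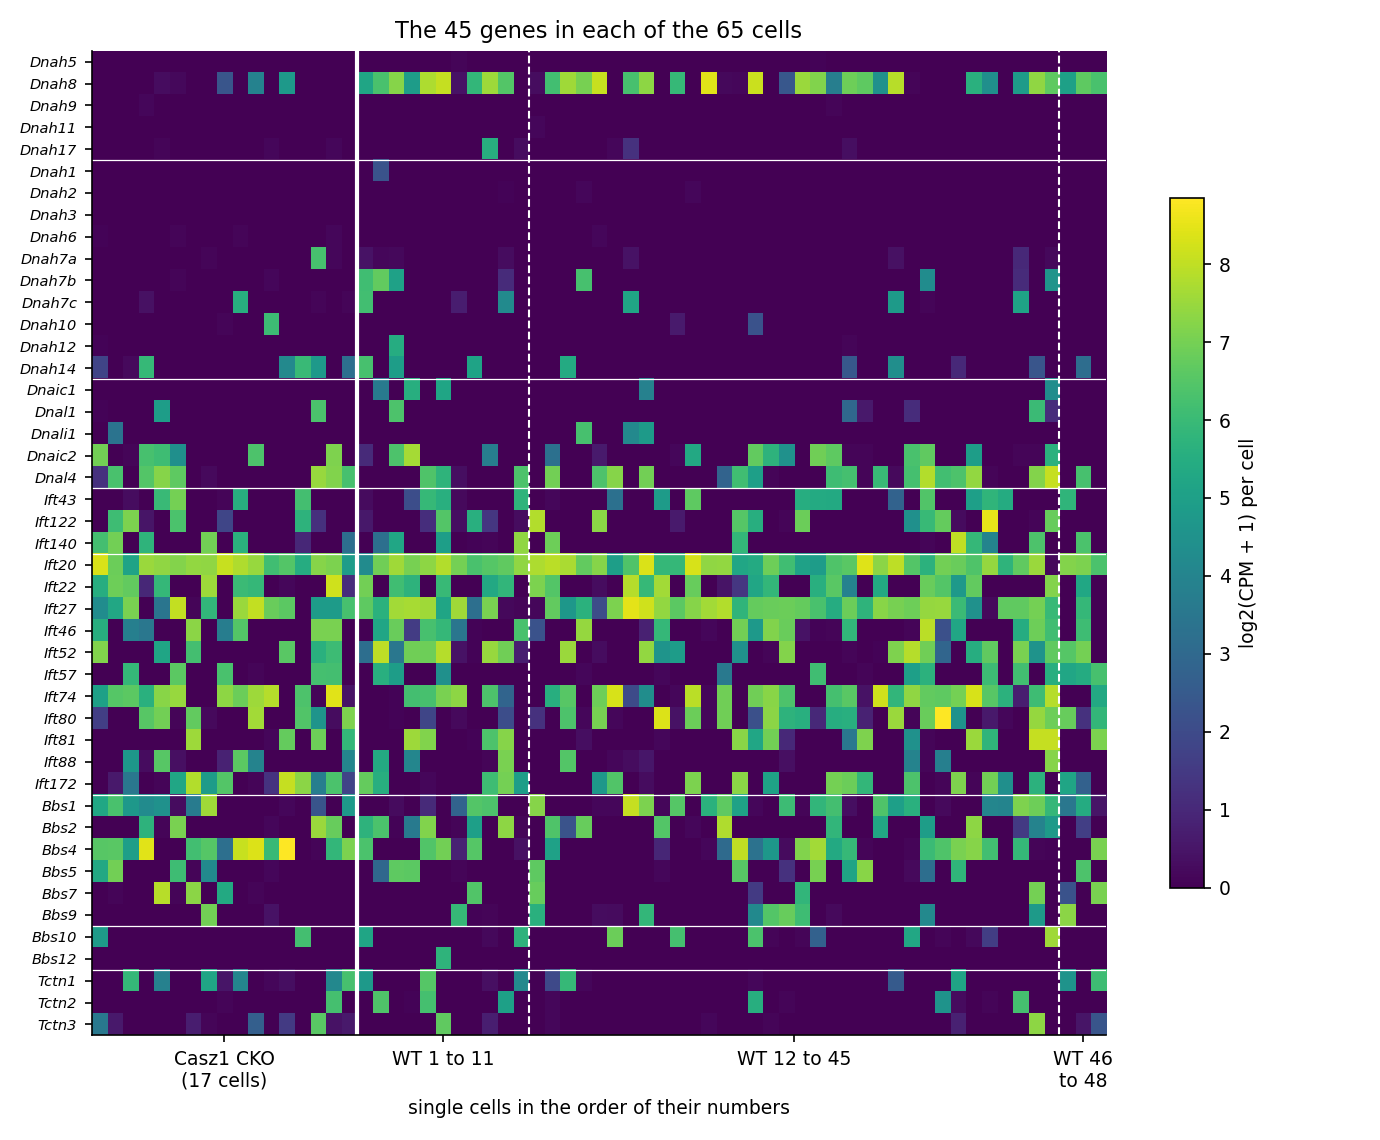
Heat map of log2(CPM + 1) per cell for the 45 genes (rows, grouped by role) in 17 CKO cells and 48 WT cells (columns, in the order of their numbers; dashed lines part WT cells 1 to 11, 12 to 45 and 46 to 48). Ift20 has a count in every cell, Dnah8 in most WT cells and in 5 CKO cells, and most other heavy chain rows hold a few scattered cells.

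Per 1000 bases of merged exons, the scale on which levels of different genes can be set side by side, Ift20 was highest at 97.7 CPM per kb in CKO and 81.9 CPM per kb in WT. Ift74 followed at 36.9 CPM per kb in CKO and 28.9 CPM per kb in WT, and Ift27 at 27.1 CPM per kb in CKO and 35.4 CPM per kb in WT. Dnah8 has 26820 bases of merged exons, so its 85.5 CPM in WT come to 3.19 CPM per kb, against 0.0851 CPM per kb in CKO, and it ranked 25 of the 45 by the mean of both. That rank includes the low CKO level, and the merged exons are longer than the longest coding transcript of Dnah8 (16685 bases). Dnah8 gave many reads in WT, but per kb it lay far below Ift20, Ift74 and Ift27 there.

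Genotype differences were modest for most measured genes. Pooled levels were higher in CKO for 16 of the 29 and lower for 13, with a median log2 ratio of CKO over WT of 0.051, beside 0.0099 over all 9864 measured genes. At least 2-fold higher in CKO were 3 of 29 (Bbs4, Bbs7 and Dnah14), beside 12.3% of all measured genes. At least 2-fold lower were also 3 of 29 (Dnah8, Tctn2 and Ift52), beside 11.6% of all measured genes. Both counts lie near the background share and are no result about the set. The ratio of Dnah8, the gene named beforehand, was the 94th lowest of the 9864.

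**Figure D2:**
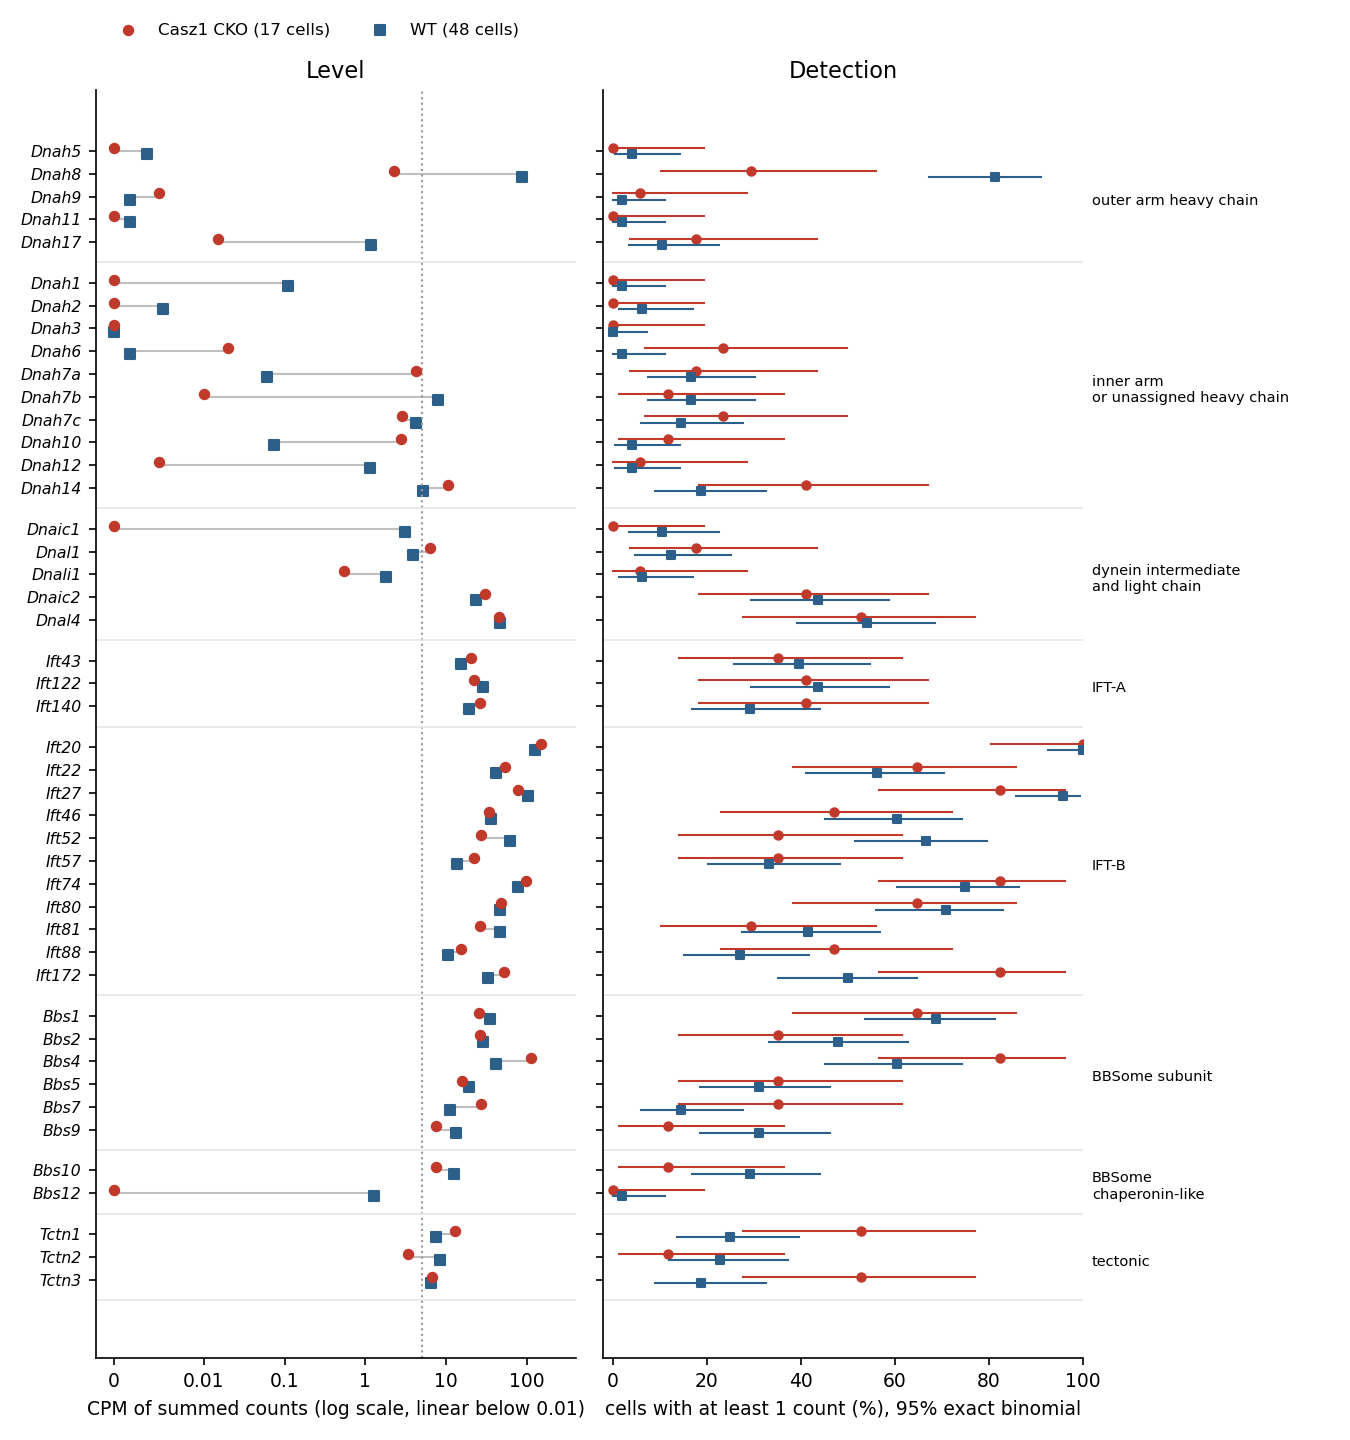
Pooled CPM (left, log axis that is linear below 0.01; dotted line at 5 CPM) and percentage of cells with at least 1 count (right, bars are 95% exact binomial intervals) for the 45 genes, CKO as circles and WT as squares. IFT and BBSome subunit genes lie between 7.57 and 149 CPM in both groups, and Dnah8 shows 2.28 CPM in CKO and 85.5 CPM in WT.

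Dnah8 encodes an outer arm heavy chain best known from the sperm flagellum, where its loss leaves sperm immotile in mice and humans. The gene lies at chr17:30624354-30877365 (GRCm38, plus strand) with 98 merged exon blocks, of which 2.42% of the bases overlap genes on the opposite strand. In CKO cells Dnah8 ranged from 0 through a median of 0 to 26.5 CPM. In WT cells it ranged from 0 through a median of 58.2 to 346 CPM. The groups overlapped, since 9 WT cells had no Dnah8 count either, but 30 of the 48 WT cells lay above the highest CKO cell.

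Among CKO cells, 12 of 17 had no Dnah8 count, and cells 6 and 5 had 0.150 and 0.240 CPM. The remaining CKO cells with counts were cell 9 at 3.99 CPM, cell 11 at 14.3 CPM and cell 13 at 26.5 CPM. The WT cells fell into a large part with clear Dnah8 and a smaller part with little or none: 33 of 48 had at least 10 CPM, the lowest of these 12.7 CPM, while 9 had 0, 5 lay above 0 and below 1 CPM and 1 lay between. At least 50 CPM was reached by 0 CKO cells and 25 WT cells.

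Summed over cells, Dnah8 had 456 counts in CKO and 46871 counts in WT, which is 2.28 CPM (2.08 to 2.50) and 85.5 CPM (84.8 to 86.3). The log2 ratio of CKO over WT was -5.23 (-5.36 to -5.10), a 37.5-fold lower level. Counts were present in 5 of 17 CKO cells (29.4%, interval 10.3% to 56.0%) and 39 of 48 WT cells (81.2%, 67.4% to 91.1%). Paired every way, the CKO cell was higher in 8.95% of the 816 pairs and the WT cell in 77.8%.

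The Dnah8 difference was also present within narrower sets of cells. Among Xist-pattern cells it stood at 2.59 CPM in CKO, with counts in 5 of 15 cells, and 53.3 CPM in WT, with counts in 8 of 9 cells. Its level was 103 CPM in WT cells 1 to 11 (10 of 11 with a count), 79.4 CPM in WT cells 12 to 45 (26 of 34) and 69.8 CPM in WT cells 46 to 48 (3 of 3). All 3 runs lay far above the 2.28 CPM of CKO, and the log2 ratio stayed between -5.81 and -4.36 in 11 other ways of computing it. Whether Cre, Casz1 or the mice that gave the cells set the level cannot be told apart.

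**Figure D3:**
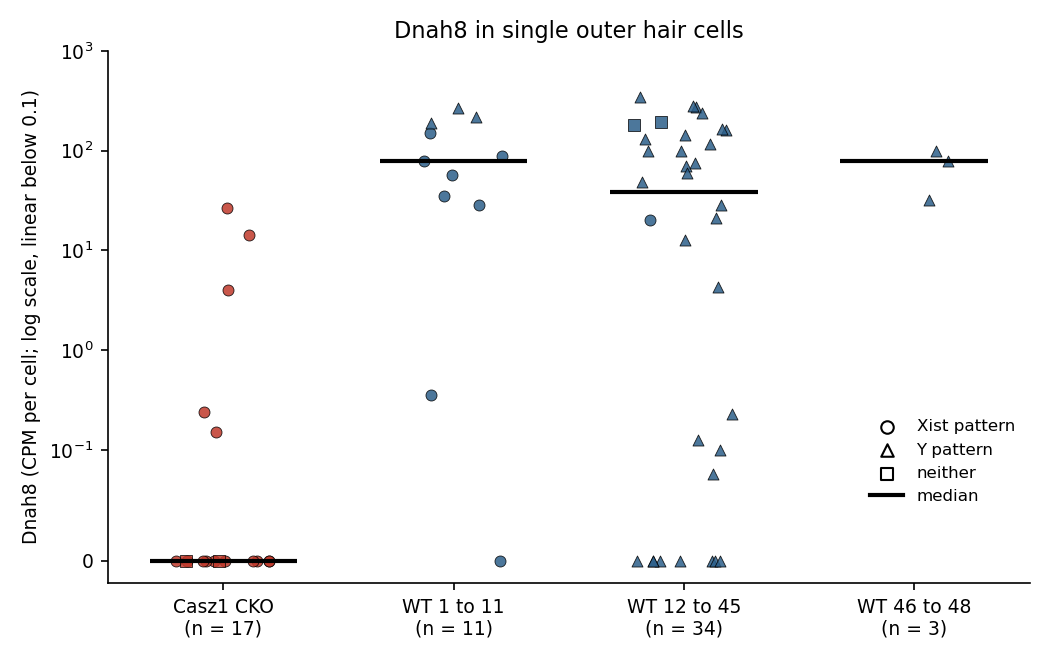
Dnah8 CPM in single cells (log axis, linear below 0.1) for 17 CKO cells and for WT cells 1 to 11, 12 to 45 and 46 to 48, with bars at the medians and symbols for the Xist, Y or neither pattern. The CKO median is 0 and no CKO cell exceeds 26.5 CPM, whereas 25 WT cells reach 50 CPM or more; cells with no count appear in CKO and in 2 of the WT runs.

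No other outer arm heavy chain was measured. Dnah5, Dnah9 and Dnah11, the outer arm motors of airway and other motile cilia, had 0, 1 and 0 counts in all CKO cells together and 2, 1 and 1 counts in all WT cells together. At these totals no difference is detectable. Dnah17, another outer arm chain of the sperm flagellum, had 3 counts in 3 of 17 CKO cells and 635 counts in 5 of 48 WT cells, and WT cell 9 alone held 97.01% of those WT counts. That pattern is 1 cell at 46.1 CPM and not a general level.

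Heavy chains of the inner arms or without an assigned place were sparse as well. Dnah14, whose place in the axoneme is less well known, ranged from 0 through a median of 0 to 63.2 CPM in CKO cells and from 0 through a median of 0 to 75.4 CPM in WT cells. Counts of Dnah14 were found in 7 of 17 CKO cells and 9 of 48 WT cells. It pooled to 10.5 CPM in CKO and 5.10 CPM in WT, a log2 ratio of 1.04. This direction depended on the cells compared, the log2 ratio being -0.31 against WT cells 1 to 11 and -1.36 when only Xist-pattern cells were used.

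Dnah7a, Dnah7b and Dnah7c are near-identical copies of an inner arm chain on chromosome 1, and reads between them are hard to place: 40.3% to 48.5% of the 50-base words of each coding transcript also occur in another transcript. A stretch of 90 coding bases is given as an example, with the 2 positions at which the copies differ in capitals. It was picked because the copies differ at few positions in it, so it does not measure their likeness elsewhere. It spans coding bases 622 to 711 of Dnah7a, 754 to 843 of Dnah7b and 622 to 711 of Dnah7c, from the GENCODE M21 transcripts.
Dnah7a: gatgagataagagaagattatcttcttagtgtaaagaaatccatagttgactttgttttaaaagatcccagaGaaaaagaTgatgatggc
Dnah7b: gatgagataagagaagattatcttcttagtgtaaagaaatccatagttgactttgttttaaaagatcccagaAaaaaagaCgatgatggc
Dnah7c: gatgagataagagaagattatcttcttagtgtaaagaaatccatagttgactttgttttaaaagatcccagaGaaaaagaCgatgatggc

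Each copy was nearly confined to a few cells. CKO cell 15 held 842 of the 844 Dnah7a counts of its group, and the WT cells together held 33. Dnah7b had 2 counts in CKO and 4327 in WT, spread over 8 WT cells. Dnah7c had 566 counts in CKO, 99.1% of them in cell 10, and 2346 in WT over 7 cells. Because the copies share sequence, the split between them is uncertain, and their sum was 7.07 CPM in CKO and 12.2 CPM in WT.

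The remaining inner arm chains gave isolated signals or almost none. Dnah10 had 550 counts in CKO, 99.8% of them in cell 12, and 41 counts in WT over 2 cells. Dnah12 had 1 count in CKO and 623 in WT, 99.8% of them in cell 3, while Dnah1 had none in CKO and 60 in 1 WT cell. Dnah2 and Dnah6 had at most 4 counts in a group. Dnah6 was nevertheless seen in 4 of 17 CKO cells, against 1 of 48 WT cells, always as a single read.

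Together the 15 heavy chains took 22.7 CPM in CKO and 105 CPM in WT, and without Dnah8 20.4 CPM in CKO and 19.8 CPM in WT. Dnah8 supplied 10.1% of all heavy chain counts in CKO (9.21% to 10.99%) and 81.2% in WT (80.9% to 81.5%). The heavy chain difference between the groups was therefore the Dnah8 difference. Another heavy chain with at least 10 counts was found in 8 of 17 CKO cells and 18 of 48 WT cells.

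The intermediate and light chains had 82.4 CPM in CKO and 77.7 CPM in WT in sum. Dnaic2, the outer arm intermediate chain, ranged from 0 through a median of 0 to 141 CPM in CKO cells and from 0 through a median of 0 to 201 CPM in WT cells, with counts in 7 of 17 and 21 of 48. It pooled to 29.9 CPM in CKO and 23.2 CPM in WT, a log2 ratio of 0.37, and the groups overlapped over nearly the whole range. Its partner Dnaic1, which pairs with Dnaic2 in outer arms, was at 0 in all 17 CKO cells (upper limit of the exact binomial interval 19.5%) and had 1703 counts in 5 WT cells. Against a floor of 3 counts over the CKO group this is at least 207-fold lower in CKO, but in WT the counts were limited to 5 of 48 cells.

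Dnal4, named as an axonemal light chain, had nearly equal pooled levels. It ranged from 0 through a median of 0.162 to 179 CPM in CKO cells and from 0 through a median of 0.0883 to 269 CPM in WT cells. Pooled it stood at 45.6 CPM in CKO and 45.8 CPM in WT, a log2 ratio of -0.0039. As with Ift80 below, this hides unlike cells: in Xist-pattern cells it was at 51.8 CPM in CKO and 8.81 CPM in WT, and WT cells 1 to 11 were at 20.6 CPM. Dnal1, which binds the motor domain of an outer arm heavy chain, was at 6.34 CPM in 3 CKO cells and 3.86 CPM in 6 WT cells, and Dnali1, an inner arm light chain, at 0.541 CPM from 1 CKO cell and 1.81 CPM from 3 WT cells.

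IFT complex B stood at 601 CPM in CKO and 592 CPM in WT in sum. Ift20, which also shuttles between the Golgi and the cilium, ranged from 28.3 through a median of 150 to 325 CPM in CKO cells and from 0.148 through a median of 115 to 343 CPM in WT cells. It pooled to 149 CPM in CKO and 125 CPM in WT, a log2 ratio of 0.25, with the groups almost fully overlapping. Of the 14 IFT genes, all measured, 9 had a higher and 5 a lower level in CKO, with a median log2 ratio of 0.31. At least 2-fold higher were 0 and at least 2-fold lower 1, beside 12.3% and 11.6% of all measured genes.

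Ift74 and Ift81 together form the tubulin-carrying module of complex B. Ift74 was at 98.1 CPM in CKO (14 of 17 cells) and 76.6 CPM in WT (36 of 48 cells). Ift81 was at 25.9 CPM in CKO (5 of 17) and 46.1 CPM in WT (20 of 48). The partners thus differed in opposite directions, with log2 ratios of 0.36 and -0.83, and neither sign turned in the alternatives computed.

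Ift52, which holds the core of complex B together, was the IFT gene with the largest difference. It ranged from 0 through a median of 0 to 143 CPM in CKO cells and from 0 through a median of 7.35 to 246 CPM in WT cells. Counts were found in 6 of 17 CKO cells and 32 of 48 WT cells, and the pooled levels were 26.7 CPM in CKO and 62.1 CPM in WT, a log2 ratio of -1.22 (-1.26 to -1.18). The WT runs differed among themselves here, with 96.6 CPM and 11 of 11 cells in WT cells 1 to 11, 45.8 CPM and 19 of 34 cells in WT cells 12 to 45, and 73.7 CPM in WT cells 46 to 48. Ift52 thus stayed below all 3 runs, with a log2 ratio under 1 in size against WT cells 12 to 45.

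Ift27, a small GTPase that takes the BBSome out of cilia, was at 77.6 CPM in CKO (14 of 17) and 101.5 CPM in WT (46 of 48). Ift172, a large peripheral subunit, was found in 14 of 17 CKO cells and 24 of 48 WT cells, at 51.8 CPM in CKO and 33.4 CPM in WT. Ift22, another small GTPase, was at 52.7 CPM in CKO and 41.1 CPM in WT. These 3 differed by less than 2-fold over all cells, but Ift27 was at 19.7 CPM in WT cells 46 to 48, well below CKO.

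Ift46, which carries outer dynein arms in Chlamydomonas, was at 33.6 CPM in CKO and 35.6 CPM in WT. Ift88, the gene whose hypomorphic allele causes polycystic kidneys in mice, was at 15.2 CPM in CKO and 10.5 CPM in WT, and Ift57 at 22.3 CPM in CKO and 13.8 CPM in WT. Against WT cells 46 to 48 the log2 ratio of Ift57 was -1.20. Ift80 shows how much a pooled WT value can hide. It was at 47.4 CPM in CKO and 46.4 CPM in WT, yet the runs of WT cells stood at 0.591 CPM (1 to 11), 65.4 CPM (12 to 45) and 55.8 CPM (46 to 48), so that its near-zero ratio is an average over unlike cells.

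IFT complex A was at 68.8 CPM in CKO and 62.98 CPM in WT in sum. Ift43 was at 20.5 CPM in CKO and 15.1 CPM in WT, Ift140 at 26.03 CPM in CKO and 19.03 CPM in WT, and Ift122 at 22.2 CPM in CKO and 28.9 CPM in WT. All 3 were seen in a minority of the cells of each group, 6 or 7 of 17 in CKO and 14 to 21 of 48 in WT.

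The BBSome subunits had the highest summed ratio of these groups, 213 CPM in CKO and 147 CPM in WT (log2 ratio 0.53), and Bbs4 supplied it. Bbs4, a subunit that links the complex to pericentriolar satellites, ranged from 0 through a median of 71.4 to 459 CPM in CKO cells and from 0 through a median of 0.155 to 252 CPM in WT cells. Counts were found in 14 of 17 CKO cells and 29 of 48 WT cells, and the CKO cell was the higher one in 67.0% of pairs. Pooled, Bbs4 was at 111 CPM in CKO and 40.9 CPM in WT, a log2 ratio of 1.44 (1.42 to 1.47). The level was 36.2, 42.7 and 42.8 CPM in the 3 runs of WT cells, all below CKO, although the distributions overlapped; 3.21% of its exon bases overlap Adpgk on the opposite strand, and whether the counting used strand is not stated in the sources used here.

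Bbs7, which forms the core of the complex with Bbs2 and Bbs9, was at 26.9 CPM in CKO and 11.1 CPM in WT, a log2 ratio of 1.27. CKO cell 5 alone held 54.7% of the CKO counts, and against WT cells 46 to 48 the log2 ratio was -0.72, so this difference rested on few cells. The other 4 subunits had lower pooled levels in CKO: Bbs1 at 25.3 CPM in CKO and 34.7 CPM in WT, Bbs2 at 26.3 CPM in CKO and 28.5 CPM in WT, Bbs5 at 15.6 CPM in CKO and 18.98 CPM in WT, and Bbs9 at 7.57 CPM in CKO and 13.2 CPM in WT. Of these, Bbs5 alone kept its sign in all alternatives, while Bbs1 turned in 5 of 12, Bbs2 in 5 of 11 and Bbs9 in 2 of 11. The median log2 ratio of the 6 subunits was -0.20 over all cells and 0.93 among Xist-pattern cells. Of the chaperonins that assemble the BBSome, Bbs10 was at 7.58 CPM in 2 CKO cells and 12.6 CPM in 14 WT cells, and Bbs12 had counts in 0 CKO cells and 1 WT cell.

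The tectonics were low, at 22.99 CPM in CKO and 22.4 CPM in WT in sum. Tctn1 was at 13.0 CPM in CKO (9 of 17) and 7.53 CPM in WT (12 of 48), and 25.5% of its exon bases overlap genes on the opposite strand; against WT cells 46 to 48 its log2 ratio was -1.17. Tctn3 was at 6.63 CPM in CKO (9 of 17 cells) and 6.402 CPM in WT (9 of 48 cells). Tctn2 was at 3.34 CPM in CKO and 8.45 CPM in WT, a log2 ratio of -1.34, but 99.9% of its CKO counts came from cell 16, and its direction turned against WT cells 46 to 48, which had none.

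**Figure D4:**
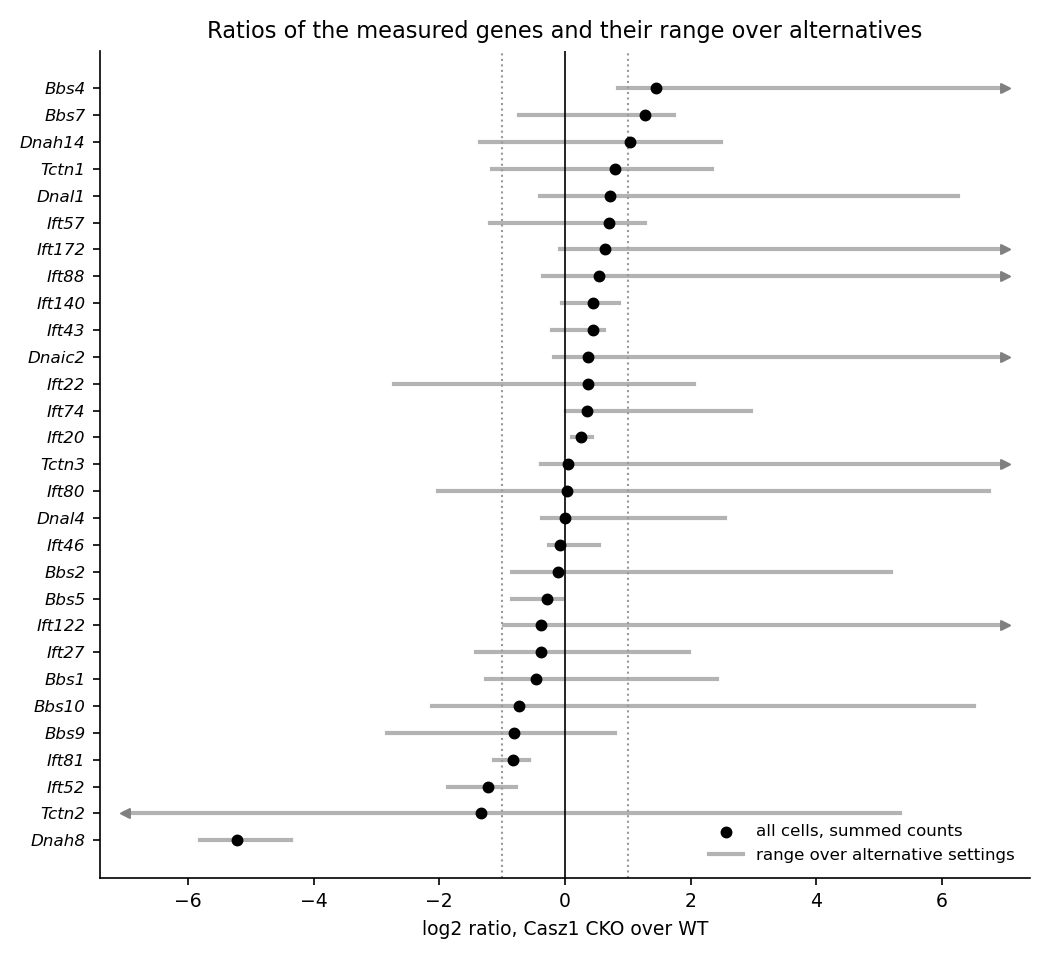
Log2 ratio of CKO over WT for the 29 measured genes (points, all cells, summed counts) with the range over 11 or 12 alternative ways of computing it (grey lines, arrows where a range leaves the axis; dotted lines at 2-fold). The Dnah8 range of -5.81 to -4.36 stays apart from 0, while 22 of the other 28 genes cross 0 at least once.

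Other ciliary genes were read from lists chosen with earlier results of these data known. IFT and BBS genes with other symbols had 12 of 17 measured, 3 higher and 9 lower in CKO, 5 of them at least 2-fold lower and 0 at least 2-fold higher, beside 11.6% and 12.3% of all measured genes, with a median log2 ratio of -0.64. By level the list was led by Bbip1, the smallest BBSome subunit, at 147 CPM in CKO and 191 CPM in WT, Lztfl1, which restrains BBSome entry, at 85.5 CPM in CKO and 60.4 CPM in WT, and Arl6, the GTPase that recruits the BBSome to membranes, at 28.8 CPM in CKO and 73.2 CPM in WT. Arl6 was in the group of 5, together with Wdr19, Ttc30b, Traf3ip1 and Trim32, which were named after their values were seen. The median stayed low when Xist-pattern cells alone were used (-0.52) but was 0.23 against WT cells 46 to 48.

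The measured motors of IFT showed no such difference. The 8 measured of 10 kinesin-2 and dynein-2 genes split into 5 higher and 3 lower in CKO, with a median log2 ratio of 0.20. Of these, 0 were at least 2-fold apart in either direction, beside 23.9% of all measured genes. Left out as not measured were Kif3b and Kif17 of kinesin-2, named after their values were seen. Kif3b had 0 counts in CKO and 2958 counts in 8 WT cells, and Kif17 had 0 counts in CKO and 85 counts in 4 WT cells. Kifap3 and Kif3a of kinesin-2 were at 171 and 139 CPM in CKO and 114 and 115 CPM in WT, and Dync2h1, the dynein-2 heavy chain, at 64.99 CPM in CKO and 82.06 CPM in WT. Cytoplasmic dynein-1 and the shared light chains had 13 of 14 measured, 7 higher and 6 lower in CKO, with a median log2 ratio of 0.078. Here too 0 were at least 2-fold apart, beside 23.9% of all measured genes.

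The 15 measured of 18 further transition zone genes split into 7 higher and 8 lower in CKO, with a median log2 ratio of -0.027. At least 2-fold higher were 2 and at least 2-fold lower 3, beside 12.3% and 11.6% of all measured genes. The 3 lower ones were Tmem67, Tmem231 and Tmem17, named after their values were seen. Tmem231 was at 0.175 CPM in CKO, with counts in 2 of 17 cells, and 16.7 CPM in WT, with counts in 23 of 48 cells. The most abundant were Tmem216 at 165 CPM in CKO and 169 CPM in WT, Ahi1 at 72.8 CPM in CKO and 85.8 CPM in WT, and Tmem107 at 72.7 CPM in CKO and 54.3 CPM in WT.

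Genes of motile axonemes other than dyneins were less sparse than the heavy chains. The 19 measured of 40 such genes split into 13 higher and 6 lower in CKO, 5 at least 2-fold higher and 1 at least 2-fold lower, beside 12.3% and 11.6% of all measured genes, with a median log2 ratio of 0.22. Tekt1, which lines the inside of doublet microtubules, was at 200 CPM in CKO (16 of 17 cells) and 109 CPM in WT (38 of 48 cells). Gas8, of the nexin-dynein regulatory complex, was at 112 CPM in CKO and 84.2 CPM in WT, and Cfap206, of the radial spoke base, at 112 CPM in CKO and 46.2 CPM in WT. Against WT cells 12 to 45 the median of the list was -0.12, so its direction depended on which WT cells were used. Assembly and docking factors of dynein arms had 5 of 17 measured, 3 higher and 2 lower in CKO, with a median log2 ratio of 0.23. At least 2-fold higher was 1 and at least 2-fold lower 0, beside 12.3% and 11.6% of all measured genes. The higher one was Dnaaf2, at 17.9 CPM in CKO and 4.82 CPM in WT. After thinning the median was -0.084, and in Xist-pattern cells 0 of 4 measured were at least 2-fold higher and 1 at least 2-fold lower.

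The transcription factors of ciliary genes were read for the same cells. Of 12 regulators 5 were measured, 2 higher and 3 lower in CKO, with a median log2 ratio of -0.070. At least 2-fold higher were 0 and at least 2-fold lower 1, beside 12.3% and 11.6% of all measured genes. The lower one was Foxn4, named after its values were seen, at 4.85 CPM in CKO (3 of 17 cells) and 12.4 CPM in WT (10 of 48 cells). The number of regulators at least 2-fold lower was 0 against WT cells 1 to 11, 0 against WT cells 12 to 45 and 2 against WT cells 46 to 48. Rfx3 was at 50.8 CPM in CKO and 62.7 CPM in WT, and Rfx7 at 55.7 CPM in CKO and 47.1 CPM in WT. Foxj1, the main factor of motile cilia, was at 6.51 CPM in CKO (11 of 17 cells) and 4.19 CPM in WT (12 of 48 cells). Neither Rfx3 nor Foxj1 was at least 2-fold apart between the groups.

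Markers of multiciliated cells were checked as a source of ciliary reads from other cells. Of 10 markers 4 were measured, Foxj1, Rsph1, Tekt1 and Dynlrb2, all of which also stand in the ciliary lists above. The summed level of the whole list was 237 CPM in CKO, with 4.97 to 695 CPM per cell, and 159 CPM in WT, with 0 to 882 CPM per cell. The defining genes Mcidas, Gmnc and Sntn had no count in any of the 65 cells. Deup1 had no count in CKO cells and 2745 counts in 3 WT cells, with up to 122 CPM. Ccdc78 had 18 counts in 1 CKO cell and 863 counts in 4 WT cells, with up to 87.2 CPM, and Ccno had 2 counts in CKO and 12 in WT. The part of such cells in the values above was otherwise not tested. Of 6 male germ cell markers none was measured.

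Markers of hair cells and of neighbouring cells also differed in level between the groups. The 7 hair cell markers, 3545 CPM in CKO and 4383 CPM in WT in sum, were all lower in CKO, with a median log2 ratio of -0.32. The 8 OHC markers were higher in 6 and lower in 2, with a median of 0.34. Inner hair cell markers summed to 37.9 CPM in CKO (0 to 220 CPM per cell) and 122 CPM in WT (0 to 422 CPM per cell), 3 of 4 being measured, and supporting cell markers to 36.8 CPM in CKO (0 to 183) and 66.5 CPM in WT (0 to 498), 4 of 9 being measured. Other markers summed to 254 CPM in CKO and 259 CPM in WT for neurons, 12.9 CPM in CKO and 10.3 CPM in WT for glia, and 3.84 CPM in CKO and 19.3 CPM in WT for macrophages. They summed to 8.47 CPM in CKO and 29.1 CPM in WT for mesenchyme, 4.31 CPM in CKO and 2.13 CPM in WT for erythroid cells, and 8.27 CPM in CKO and 2.0002 CPM in WT for endothelium. The part of such differences in the ciliary values was not tested.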

How the data were processed

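The authors deposited whole-number counts per gene for 65 single cells (Smart-Seq HT full-length cDNA and TruePrep tagmentation, no molecular identifiers, per the labels' protocols). Per the submitters' processing notes, HISAT2 2.2.1, StringTie 2.2.1 and featureCounts 2.0.1 were used with the mm10 build; the tool that gave the counts, the annotation, the strand setting and filters were not given in the sources used here. Protocol text names inner hair cells and induced OHCs, whereas the titles name OHCs, which were followed. All columns matched the title of 1 sample.

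CPM of a group is the gene's counts over its cells per 1000000 counts of all genes there, with exact Poisson, conditional (Clopper-Pearson) and binomial intervals at 95%. These cover counting error only, because reads are not independent molecules and animals are not labelled. A group without counts was set to 3 counts over the group, which gives a bound. Measured means a mean of both groups' CPM of at least 5; levels differ at least 2-fold where so called. Lengths, overlaps and coordinates come from GENCODE M21 (GRCm38), in which 53292 of the 55292 symbols were found; promoters come from RefSeq (GRCm38.p6). The Xist pattern is at least 10 Xist counts with a sum below 10 for the Y-linked Kdm5d, Uty, Eif2s3y and Ddx3y. The 2080 pairs of cells held 0 identical ones.

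Named are all measured genes, unmeasured ones with counts in at least 5 cells or by count, and up to 3 genes per other list by level. The genes, lists, X-box letters and runs of WT cells were chosen with earlier results of these data known. Some results on the other lists are not reported here. Markers of hair cells and of other cell types were summed. Alternatives were a median or mean over per-cell CPM values, TMM of edgeR 4.0.16 and DESeq2 1.42.0 size factors as scalings only, a total without mitochondrial and ribosomal protein genes, thinning to 7458126 counts, leaving out the cell with most counts of a gene, Xist-pattern cells, cells with at least 10000000 counts, each run of WT cells and other minimum levels. The procedure was tested on simulated data. Python 3.11.15, numpy 2.4.6 and scipy 1.17.1 were used.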

Additional observations from a re-analysis of the deposited data

How the results depend on the processing

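No paired analysis was possible because the numbers of the replicates are names of single cells and carry no pairing across genotypes. The Dnah8 log2 ratio kept its direction and stayed beyond 2-fold in the 11 alternatives: -5.004 as a mean of per-cell CPM, -5.02 after thinning, -4.36 in Xist-pattern cells, -5.81 in cells with at least 10000000 counts, -5.50 against WT cells 1 to 11 and -4.93 against WT cells 46 to 48; the median of per-cell CPM gave no value, since it is 0 in CKO. Turned round were Dnah14 (-1.36 in Xist-pattern cells, -0.31 against WT cells 1 to 11), Bbs7 (-0.72) and Tctn2 (a bound of 5.34), the last 2 against WT cells 46 to 48; the cause was not tested. The number of measured genes was 5 by the median of per-cell CPM, 17 with a minimum of 20 CPM and 44 without a minimum. The count at least 2-fold higher in CKO was 7 of 30 in Xist-pattern cells and 1 of 29 in cells with at least 10000000 counts. It was 6 of 31 against WT cells 1 to 11 and 10 of 25 against WT cells 46 to 48. With other minimum levels it was 5 at 1 CPM, 1 at 20 CPM and 7 without a minimum, and it was 1 without genes that overlap others. Over all measured genes the share at least 2-fold higher was 12.3% with all cells, 20.7% in Xist-pattern cells, 18.8% against WT cells 1 to 11 and 27.8% against WT cells 46 to 48, and the share at least 2-fold lower was 11.6%, 16.3%, 14.8% and 21.9%, so the larger counts go with larger background shares. In cells with at least 10000000 counts the higher and lower shares were 14.1% and 13.3%, and by the median of per-cell CPM 17.4% and 14.9%. For other minimum levels and without overlapping genes the shares are not given here. The count at least 2-fold lower was 1 of 5 by the median of per-cell CPM and 7 of 30 in Xist-pattern cells. It was 6 of 31 against WT cells 1 to 11, 5 of 25 against WT cells 46 to 48, 6 with a minimum of 1 CPM and 10 without one. The median log2 ratio was 0.57 by the median of per-cell CPM and 0.49 against WT cells 46 to 48. Of 317 ratios of the other 28 measured genes, 54 had the opposite sign; 6 genes (Ift20, Ift52, Ift74, Ift81, Bbs4 and Bbs5) never did. Of 180 shares of cells with a count, recomputed after thinning or with a minimum of 10 counts, 21 left the 95% exact binomial interval of the first value. The same settings were added for the other lists after seeing the data. With 1 sample per genotype, and with Cre, sex pattern and WT run differing between the groups, these values describe the cells at hand.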
